A study of Mus musculus with 4 samples.

Results

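The regions described here are peaks of open chromatin in mouse hepatocyte nuclei that could be measured in undamaged liver (PHx 0 h) and 72 h after partial hepatectomy (PHx 72 h) over nearly the same stretch of DNA. A member is a pair of autosomal peaks, 1 from each library, that overlapped each other and no other peak of the other library, with the longer peak at most 1.1 times as long as the shorter. There were 23704 such pairs among 88247 one-to-one pairs of any length, or 26.9%. They came from 117333 autosomal peaks at 0 h and 161621 at 72 h. A pair was called a promoter pair when a transcription start site (TSS) of GENCODE vM21 lay within 1000 bp of it, which gave 5332 promoter and 18372 distal pairs.

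The study profiled chromatin accessibility in hepatocyte nuclei by single-nucleus ATAC-Seq (scATAC-Seq), in which the Tn5 transposase cuts open DNA and a droplet barcode marks the nucleus. Partial hepatectomy (PHx) removes part of the liver, and the remaining lobes grow back. The 0 h library came from normally fed C57BL/6J mice without surgery, and the 72 h library from mice of the same strain and sex (adult males) 72 h after surgery. The labels give an age of 10 to 12 weeks for both, and hepatocytes of both were released by collagenase perfusion. Each time point has 1 library. The 0 h library came from 1 hepatocyte preparation, and the sources used here do not state the number of animals behind that of 72 h. Time, animal and library therefore cannot be told apart, no p-value is given, and the intervals below cover counting error only.

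Promoters of active genes are kept free of nucleosomes, and distal elements such as enhancers become open where transcription factors bind them, so open chromatin marks the regulatory DNA a cell has available. Hepatocytes secrete most plasma proteins, clear metabolites and drugs, and store or burn fuel. After hepatectomy they leave quiescence and divide while these tasks continue.

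The sequences below are the middle of pairs that the comparison turned on, taken from the RefSeq assembly of GRCm38 (plus strand). They are the promoter that rose most, the promoter and the distal pair that fell most, and the promoter of Cpt1a, which fell most among the fatty acid oxidation genes. Each is the central 300 bp of the pair, or the longest run of it outside annotated UTRs. The word promoter names the pair, and the printed run need not lie at the start site. Capitals mark letters that match 1 of the 26 motifs searched on both strands.
Filip1l promoter, chr16:57549340-57549523: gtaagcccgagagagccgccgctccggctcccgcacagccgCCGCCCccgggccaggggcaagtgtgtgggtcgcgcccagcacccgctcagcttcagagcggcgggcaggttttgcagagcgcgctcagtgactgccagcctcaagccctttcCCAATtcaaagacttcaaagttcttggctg
Fetub promoter, chr16:22920496-22920624: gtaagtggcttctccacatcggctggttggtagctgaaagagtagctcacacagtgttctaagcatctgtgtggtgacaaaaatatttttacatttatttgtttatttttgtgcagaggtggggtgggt
near Tnks2, distal, chr19:36808993-36809292: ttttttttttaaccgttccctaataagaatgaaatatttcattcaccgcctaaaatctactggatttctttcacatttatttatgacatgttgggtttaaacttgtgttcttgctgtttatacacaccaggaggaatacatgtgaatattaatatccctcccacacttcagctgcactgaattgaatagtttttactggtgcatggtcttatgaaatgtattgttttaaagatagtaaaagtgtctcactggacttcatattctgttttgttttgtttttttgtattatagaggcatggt
Cpt1a promoter, chr19:3322937-3323236: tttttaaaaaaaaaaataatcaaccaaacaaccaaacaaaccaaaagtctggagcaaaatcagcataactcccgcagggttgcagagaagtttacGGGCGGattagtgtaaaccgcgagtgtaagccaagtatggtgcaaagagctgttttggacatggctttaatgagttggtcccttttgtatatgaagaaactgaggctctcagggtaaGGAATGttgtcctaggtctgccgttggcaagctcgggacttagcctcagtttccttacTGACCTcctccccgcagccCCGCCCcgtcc
The printed run at Filip1l held 66.3% G and C, and that near Tnks2 held 32.0%. Filip1l carried a GC box (GGGCGG) and an NF-Y box (CCAAT), whereas the runs at Fetub and Tnks2 held no match. Cpt1a carried 2 GC boxes, 1 TEAD motif (CATTCC) and 1 nuclear receptor motif (AGGTCA). A match describes the letters and is not a bound site.

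The 0 h library was far deeper. Barcodes with at least 1000 counts, called nuclei here, numbered 3977 at 0 h and 4256 at 72 h, with median counts of 26005 and 4841 per nucleus. The matched pairs held 35128549 counts at 0 h and 7197067 at 72 h. The 2 libraries shared 882 barcodes. Of these, 698 passed the minimum at 0 h only and 60 in both, and their median count was 71159 at 0 h against 483 at 72 h. Without shared barcodes, 3219 and 4181 nuclei remained. Of the 10 hepatocyte markers, 5 had a higher level at 72 h, none was at 0 in either library, and their summed level was 4523.2 counts per 1000000 peak counts (CPM) at 0 h and 4368.6 at 72 h. Of the 8 stellate markers 7 were higher at 72 h, with sums of 109.6 and 253.8. Of the 8 myeloid markers 6 were higher, with sums of 70.7 and 140.2, and of the 10 endothelial markers 8 were higher, with sums of 260.9 and 333.1. Des and Hand2 (stellate), Clec4f, Adgre1, Vsig4, Timd4 and Cd5l (myeloid) and Cdh5 (endothelial) were at 0 in the 0 h library, and Des, Vsig4 and Cd5l at 72 h. Cholangiocyte markers summed to 153.7 and 135.2 (7 of 8 higher, with Krt19, Krt7 and Cftr at 0 at 0 h) and lymphocyte markers to 45.7 and 50.9 (2 of 8 higher). These sums run over the peaks called in each library.

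Counts were scaled to equal totals over the pairs, and the log2 ratio of 72 h to 0 h was centred on its median over all 23704 pairs, which removed 0.20. Levels are given as CPM of the counts in the pairs, before centring. A pair with equal CPM at both times thus has a centred log2 ratio of -0.20. Calls were made for the 4827 promoter and 10471 distal pairs with a mean scaled count of at least 100, at a fold change of at least 1.5. In sums over nuclei, a site that opens further in every nucleus cannot be told apart from one that opens in more nuclei.

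As centred here, promoters fell more often than they rose, and fell more often than distal elements, but both orders depended on the centring or the counting, as given below. Among promoter pairs, 807 (16.7%) were lower at 72 h and 199 (4.12%) were higher. Among distal pairs, 920 (8.79%) were lower and 324 (3.09%) were higher. The median log2 ratio was -0.23 for promoter pairs and -0.07 for distal pairs, with SDs over pairs of 0.411 and 0.371. For each of these calls the 95% counting interval excluded 0, which the count minimum and the fold limit largely ensure. For 58 of the 199 and 355 of the 807 promoter calls the interval lay wholly past the fold. Changes of at least 2-fold were rare, with 18 promoter pairs higher (0.373%) and 85 lower (1.76%), and 21 distal pairs higher (0.201%) and 80 lower (0.764%). Over both kinds, 3.42% of pairs were higher and 11.3% lower, and 0.255% and 1.08% at the 2-fold limit. Just inside and outside the threshold lay, among promoters, Gm37844 at a log2 ratio of 0.59 and Dctd at 0.58, and Mxi1 at -0.59 and Ing1 at -0.58.

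**Figure D1:**
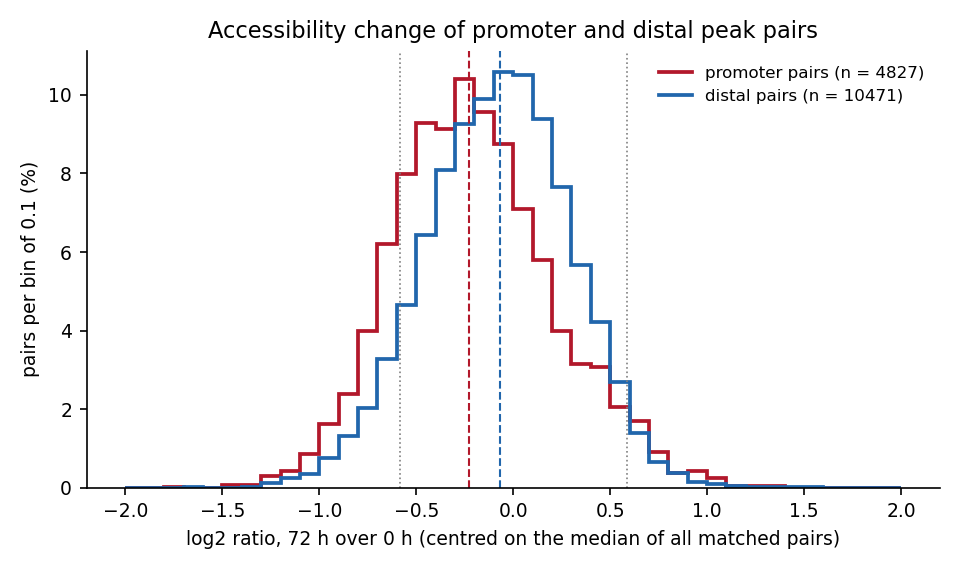
Share of promoter (red, n = 4827) and distal (blue, n = 10471) pairs per bin of 0.1 of the centred log2 ratio of 72 h to 0 h. Dashed lines are the medians (-0.23 and -0.07), dotted lines the 1.5-fold limits, and the promoter curve lies to the left of the distal one.

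The balance of rises and falls depended on where the ratios were centred. Centred on the pairs over the count minimum, 316 promoter pairs were higher and 473 lower, and 674 distal pairs were higher and 514 lower. With equal totals alone, 447 promoter pairs were higher and 295 lower, and 1108 distal pairs were higher and 317 lower. Centred apart, promoter pairs were higher in 430 and lower in 323 cases, and distal pairs higher in 240 and lower in 1137. When each nucleus counted at most once per peak (binarised counts), the promoter split turned, with 305 higher and 138 lower. Centring moves all pairs of a kind by the same amount and leaves their order. Gene groups are therefore read below against the median and the called shares of all promoter or distal pairs. A named pair is said to fall or rise when it passes the 1.5-fold limit as centred here. That limit is set around the median of all pairs. A promoter just past the lower limit thus lies less than 1.5-fold below the promoter median of -0.23. Without shared barcodes, 186 promoter pairs were higher and 749 lower, and 885 of the 1006 promoter calls and 1065 of the 1244 distal calls were made again in the same direction.

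Risen promoters were weaker at 0 h, shorter and richer in G and C than the rest. Their median GC content was 58.9%, against 53.4% for all promoter pairs tested and 51.2% for fallen ones. The median level at 0 h was 17.8 CPM per kb in risen, 38.1 in all and 43.7 in fallen promoters, where the 0 h level is also the denominator of the ratio. At 72 h it was 34.5 CPM per kb in risen, 36.8 in all and 30.4 in fallen promoters. The median length at 0 h was 1621 bp in risen and 2650 bp in fallen promoters. In the quintile of promoters with the highest GC content, 11.6% were higher and 4.35% lower, and in the lowest quintile 2.90% were higher and 22.9% lower. Risen distal pairs were likewise weaker at 0 h (17.2 CPM per kb, against 33.7 in fallen pairs) and shorter (855 against 1881.5 bp), but their median GC content was 47.5%, against 46.8% in all and in fallen pairs.

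The ratio also followed the small difference in length that the matching left. Where the 72 h peak was at most 0.95 times as long as the 0 h peak, the median log2 ratio was -0.41 in 1582 promoter pairs and -0.29 in 2804 distal pairs. Where it was over 5% longer, the medians were 0.17 in 468 promoter pairs and 0.18 in 1369 distal pairs. Counts and peak length come from the same reads, and their order of dependence was not tested. With lengths held within 5%, 82 promoter pairs were higher and 386 lower out of 2706.

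**Figure D2:**
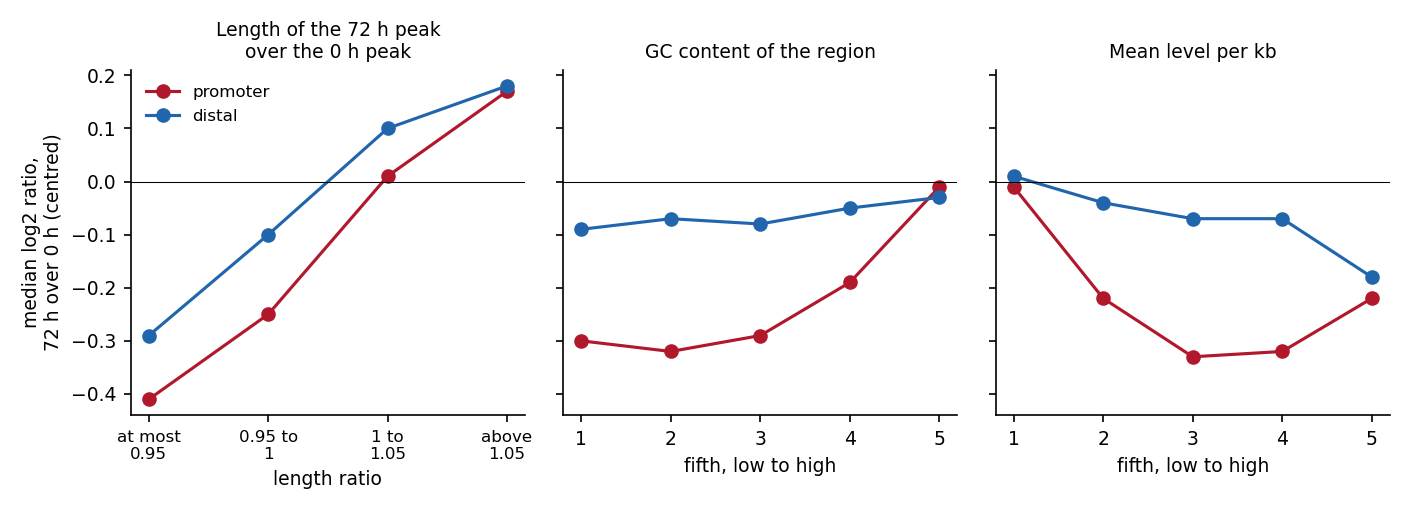
Median centred log2 ratio (72 h over 0 h) of promoter (red) and distal (blue) pairs by the length of the 72 h peak over the 0 h peak (left), and by quintiles of GC content (middle) and of mean CPM per kb (right). The medians climb from -0.41 to 0.17 with the length ratio in promoters, and only the promoter line climbs clearly with GC content.

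Among single promoters, the 15 largest rises ran from a log2 ratio of 1.02 to 1.37 and the 15 largest falls from -1.75 to -1.23. The largest rise was at Filip1l, with 15.6 CPM at 0 h and 47.8 CPM at 72 h, a log2 ratio of 1.37 (95% interval 1.13 to 1.70). Ephb6, a member of the Eph receptor family without kinase activity, went from 35.1 to 103.1 CPM, a log2 ratio of 1.34 (1.16 to 1.54). Sox21, a transcription factor of the developing nervous system, went from 45.8 to 115.9 CPM (log2 ratio 1.13). All 3 promoters had under 50 CPM at 0 h.

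Hpx encodes hemopexin, the plasma protein that binds free haem, and it was the only secreted plasma protein among the rises. Its pair, 14898 bp long at 0 h and covering the whole gene, rose from 655.6 CPM (643.7 to 667.7) to 1742.7 CPM (1699.8 to 1786.3), a log2 ratio of 1.21. A second long region, 26764 bp at 72 h and overlapping exons of Cth, an enzyme of cysteine synthesis, rose from 657.2 to 1546.3 CPM (log2 ratio 1.03). It is named Gm43314 by its nearest start site, and the separate promoter pair of Cth had a log2 ratio of 0.22. The remaining names with a rise of this size were Gm10800, Olfr94, 4930404H24Rik, Gm29340, Lmcd1, Ephx4, Hs3st3a1, Gm44190, Epdr1 and Camta1. Of these, Lmcd1 encodes a LIM domain protein, Hs3st3a1 a heparan sulfate sulfotransferase and Camta1 a calmodulin-binding transcription factor. Gm10800 lies in satellite-like repeats, with 66.9% of its 1488 bp masked, where reads from many copies can pile up, so its rise from 251.7 to 697.1 CPM is uncertain.

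Among the 15 largest falls were genes of secreted proteins, of metabolism and of general cell upkeep. Fetub, which encodes the secreted protease inhibitor fetuin-B, fell from 264.2 CPM (256.7 to 271.9) to 89.6 CPM, a log2 ratio of -1.75 (-1.93 to -1.60), or 3.37-fold. Selenop, the carrier of selenium from liver to other tissues, fell from 1389.9 to 574.1 CPM (log2 ratio -1.48). Cpt1a, which controls the entry of fatty acids into mitochondria for oxidation, fell from 436.7 to 196.9 CPM (log2 ratio -1.35). The intervals of 0 h and 72 h levels did not overlap at any of these genes, which were picked by the size of the fall. With binarised counts Selenop was at a log2 ratio of 0.63, above the median.

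Further falls lay at other enzymes and at housekeeping genes. Cdo1, which oxidises cysteine, fell from 1404.5 to 653.5 CPM, and Gstt2, a glutathione transferase, from 413.0 to 179.4 CPM. Gne, the first enzyme of sialic acid synthesis, fell from 531.8 to 251.4 CPM, and Rdh1, a retinol dehydrogenase, from 50.3 to 23.5 CPM. The start site shared by Sirt3, a mitochondrial deacetylase, and the proteasome gene Psmd13 fell from 201.6 to 86.0 CPM. Mafg, the small Maf partner of NRF2, whose pair also covers the start of Sirt7, fell from 602.1 to 293.6 CPM. Hbs1l (a factor that rescues stalled ribosomes), Bysl (ribosome assembly), Atp6v0c (the proton pump of lysosomes), Klc4 with Mrpl2, Saa-ps and Gm33543 complete the 15. With binarised counts the ratios of Cdo1 (0.71), Gne (0.08), Mafg (0.18) and Gm33543 (0.07) lay above 0. The falls were long regions, between 1767 and 26279 bp at 0 h, with a median of 5010 bp against 1481 bp for the 15 rises.

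**Figure D3:**
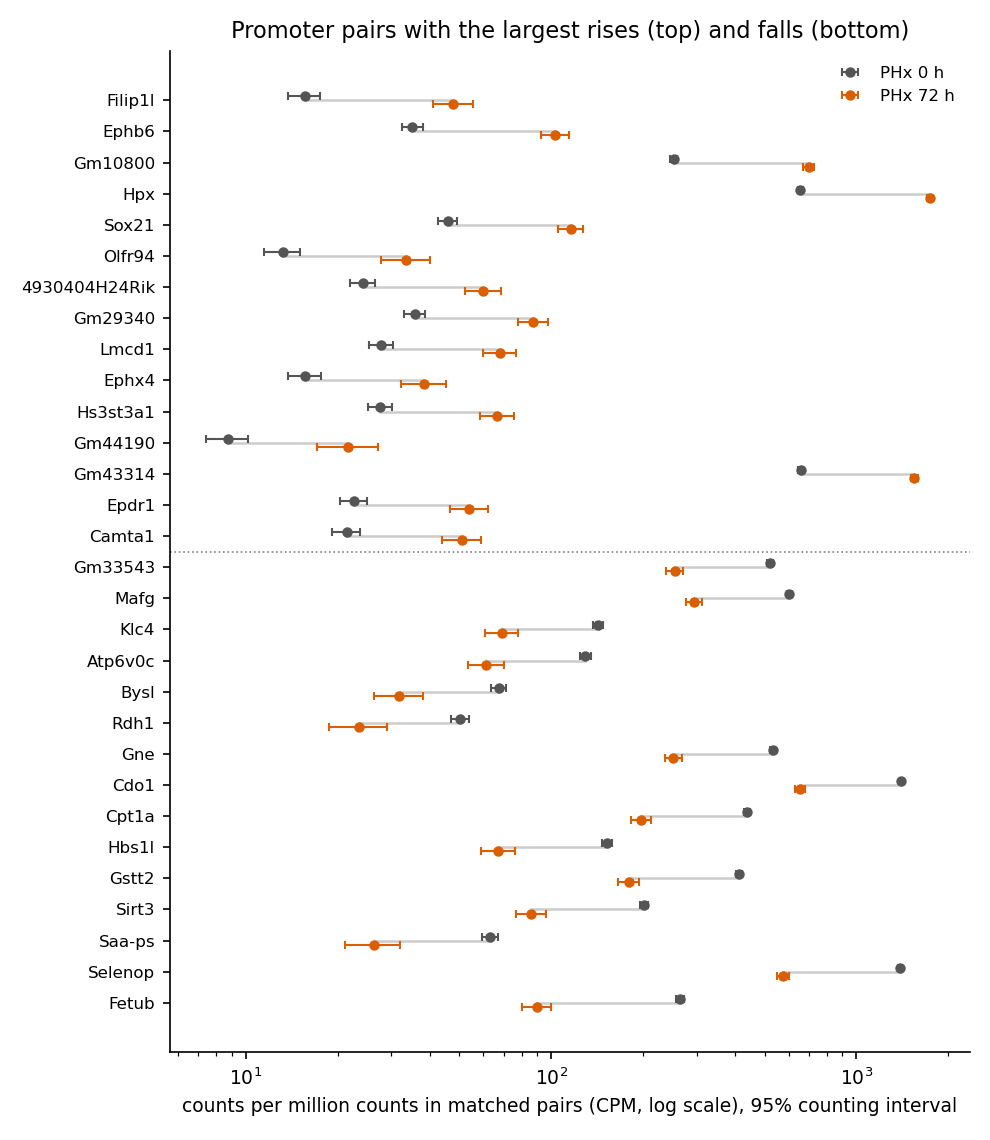
Levels (CPM, log axis) of the 15 promoter pairs that rose most and the 15 that fell most at 0 h (grey) and 72 h (orange), with 95% counting intervals. The intervals of both times are separate in each of the 30 pairs, which were picked for large ratios. The falls start from higher levels than most of the rises.

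Hepatocyte functions were read through gene lists. Calls in a list are read against all promoter pairs, of which 16.7% were lower and 4.12% higher. Some promoter pairs were far longer than a promoter, so their changes cannot be placed at the start site. Such pairs measured 27108 bp at Fasn, 32073 bp at Cyp3a11, 38308 bp at Serpinc1, 46749 bp at Apob and 56545 bp at Ass1 at 0 h. Other pairs lie at the start sites of more than 1 gene, so their change cannot be assigned to a single gene. Among those named below are C8g (with Fbxw5), Apoa2 (Tomm40l), Mttp (Trmt10a) and Gckr (Fndc4). Further examples are Psmc5 (Ftsj3), Eif2s1 (Atp6v1d), Trp53 (Wrap53), Urod (Hectd3), Ier3 (Flot1), Tln1 (Creb3) and Slc25a32 (Dcaf13). Promoters of secreted plasma proteins lay low as a group: 4 of 10 were lower, 1 was higher, and the median log2 ratio was -0.52 against -0.23 for all promoter pairs. Beside Fetub these were Itih2, a hyaluronan-binding protease inhibitor chain, which fell from 340.1 to 200.2 CPM, and the complement genes C8g (138.8 to 82.3 CPM) and C8a (99.0 to 73.9 CPM). Serpinc1, the gene of antithrombin, had 1301.9 and 1163.9 CPM, a log2 ratio of -0.36. Of the 3 lipoprotein promoters, Apoa2 fell from 634.8 to 378.1 CPM and Mttp, which loads lipid onto apolipoprotein B, from 182.4 to 136.2 CPM, and Apob had 2828.0 and 2321.1 CPM (log2 ratio -0.49). Relative to all promoters, the plasma protein median lay lower under every alternative run (by 0.17 to 0.41), whereas the lipoprotein median lay higher with binarised counts, which also put Apoa2 (0.44) and Itih2 (0.02) above 0.

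In fuel metabolism the falls included rate-controlling steps. Of 5 promoters of fatty acid oxidation, 2 were lower (Cpt1a and Acsl5, 154.3 to 109.2 CPM), and the median was -0.55. All 5 had ratios below 0, as most promoter pairs did. In fatty acid synthesis and triglyceride handling 3 of 9 were lower: Pnpla2, the triglyceride lipase, from 156.7 to 78.4 CPM, Dgat1, which makes triglycerides, from 135.3 to 85.7 CPM, and Fasn, fatty acid synthase, from 2548.2 to 1737.5 CPM. The median of this list, -0.22, was that of promoters in general. Gckr, the regulator of glucokinase, fell from 183.4 to 102.4 CPM (log2 ratio -1.04). In cholesterol synthesis Sc5d (1364.0 to 945.0 CPM) and Tm7sf2 (122.4 to 86.0 CPM) fell. Binarised counts turned the falls at Fasn and Sc5d into rises.

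Genes of amino acid breakdown and drug clearance were mixed. Aass, the first enzyme of lysine breakdown, fell from 276.2 to 160.5 CPM, Sdsl from 85.6 to 51.4 CPM and Bckdhb, of branched-chain amino acid breakdown, from 124.5 to 85.0 CPM. Ass1, a urea cycle enzyme, had 1852.4 and 1890.6 CPM (log2 ratio -0.17), and Tat, tyrosine aminotransferase, had 944.8 and 1062.0 CPM (-0.03). In drug metabolism, Ces2a (195.5 to 122.1 CPM), Sult1b1 (93.5 to 58.5 CPM) and Gstt1 (88.3 to 64.1 CPM) fell, and Cyp3a11, the main inducible P450 of its subfamily, rose from 718.0 to 1260.4 CPM (log2 ratio 0.61). Hsd3b7, of bile acid synthesis, fell from 217.2 to 148.5 CPM.

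Regulators of hepatocyte identity were mostly below the promoter median, as 9 of 10 promoter pairs were. Esrra, a nuclear receptor of energy metabolism, fell from 169.4 to 99.5 CPM (log2 ratio -0.97). Nr5a2, the receptor LRH-1 of bile acid control, fell at both of its promoters, from 192.2 to 116.7 CPM and from 202.5 to 140.5 CPM. Cebpb had 692.6 and 534.1 CPM (log2 ratio -0.58), Onecut1 338.4 and 307.2 CPM (-0.34) and Rora 63.7 and 83.1 CPM (0.18). The list median of -0.50 lay below that of all promoters under the alternatives run, except with binarised counts.

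Promoters of protein breakdown and respiration genes fell more often than promoters at large. Of 11 proteasome promoters 7 were lower, or 63.6% against 16.7%, and the median log2 ratio was -0.68. The largest fall after Psmd13 was at Psmd5, from 102.3 to 54.3 CPM, followed by the ATPase gene Psmc5, from 86.3 to 51.3 CPM. Psma7, at the other end, had 130.7 and 143.5 CPM (log2 ratio -0.07). Of 21 nuclear genes of oxidative phosphorylation 11 were lower (52.4%), all 21 had ratios below 0, and the median was -0.59. As centred here, most promoter pairs had ratios below 0, with a median of -0.23 and an upper quartile of 0.05. Ndufs1 of complex I shares its start region with the translation gene Eef1b2, and fell from 158.6 to 95.7 CPM. Sdhd of complex II fell from 153.5 to 94.3 CPM and Uqcr11 of complex III from 98.3 to 59.6 CPM.

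Ribosomal genes followed the same direction. Of 11 cytosolic ribosomal protein promoters 5 were lower, with a median of -0.57 and a range of -0.92 (Rpl15, 189.4 to 115.0 CPM) to -0.20 (Rpl38, 82.9 and 83.0 CPM). Of 34 mitochondrial ribosome promoters 9 were lower, with a median of -0.46, led by Mrpl2 (142.2 to 69.1 CPM) and Mrps31 (88.2 to 57.4 CPM). Of 38 promoters of translation factors and tRNA synthetases 7 were lower (18.4%, near the 16.7% of all promoters), with a median of -0.38, led by Eef1g (110.3 to 61.6 CPM) and Eif2s1, the alpha subunit of eIF2 (121.2 to 70.4 CPM). The medians of these 5 lists lay below that of all promoters under every alternative run, the proteasome by 0.31 to 0.49 and oxidative phosphorylation by 0.21 to 0.38.

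Cell cycle promoters moved little beyond the rest. Of 27 mitosis promoters 4 were lower (14.8%), none was higher, and the median was -0.31. Birc5, the survivin gene of the chromosomal passenger complex, fell from 190.1 to 102.3 CPM (log2 ratio -1.09), Aurkb from 36.9 to 27.0 CPM and Incenp from 79.8 to 59.5 CPM. Cdk1 had 68.1 and 77.9 CPM (log2 ratio -0.01) and Foxm1 75.6 and 79.8 CPM (-0.13). Of 19 replication and repair promoters 3 were lower, against 16.7% of all promoters. They were Fen1, the flap nuclease (71.2 to 42.4 CPM), Slbp, which binds histone mRNA (113.2 to 79.2 CPM), and Mcm4 of the replicative helicase (95.2 to 70.9 CPM). Mcm6 of the same helicase had 70.4 and 102.8 CPM (log2 ratio 0.34) and Dut 161.0 and 243.0 CPM (0.39), so the helicase genes did not move as a group. Among cell cycle entry genes Trp53, which encodes p53, fell from 176.3 to 99.2 CPM, and E2f7, a repressing E2F, had 53.0 and 88.9 CPM (0.54).

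The lowest median among cell cycle lists was that of histone genes. Of 15 histone promoter pairs, which cover 26 genes, 9 were lower (against 16.7% of all promoters) and none was higher (against 4.12%), with a median of -0.65. The pair over Hist1h2bh and Hist1h3f fell from 79.8 to 39.7 CPM (log2 ratio -1.20), and that over Hist1h2af, Hist1h3g and Hist1h4h from 264.8 to 146.6 CPM (-1.05). H2afx, the replacement variant of the DNA damage response, fell from 121.2 to 74.3 CPM, whereas H3f3a had 181.6 and 152.7 CPM (-0.45) and Hist2h3c2 77.1 and 103.4 CPM (0.22). Histone genes are near copies of each other, so reads may be split between them.

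Developmental regulators, matrix genes and signalling receptors had the highest list medians. For developmental and fetal regulators the median was 0.30 over 10 promoter pairs, with 1 higher, 1 lower and 4 below 0. Zeb2, a repressor of epithelial genes, rose at its stronger promoter from 56.6 to 111.3 CPM (log2 ratio 0.77) and had 15.4 and 23.1 CPM at another start site (0.36). Igf2bp1 (13.3 and 22.5 CPM), Igf2bp2 (55.2 and 89.1 CPM), fetal RNA-binding proteins, and Sox4 (38.1 and 62.1 CPM) had log2 ratios of 0.53, 0.48 and 0.49. Meis1 fell from 170.6 to 127.8 CPM, and Afp, the fetal albumin homologue, had 29.7 and 31.5 CPM (-0.12). Gata6 had 277.0 and 224.1 CPM (-0.51) and Zeb1 134.4 and 111.0 CPM (-0.48), so Zeb1 and Zeb2 lay on opposite sides of the promoter median. Most members with high ratios had levels under 60 CPM at 0 h.

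Of 18 matrix and adhesion promoters 3 rose and 3 fell, against 4.12% and 16.7% of all promoters, and the median was 0.04. Itgb4, the laminin receptor subunit of hemidesmosomes, rose from 22.1 to 48.6 CPM (log2 ratio 0.91), Col18a1, a basement membrane collagen, from 20.6 to 39.0 CPM, and Gja1, connexin 43, from 24.2 to 44.3 CPM. Cldn1, a tight junction protein, fell from 208.1 to 136.6 CPM, Sdc4, a heparan sulfate proteoglycan, from 2930.6 to 2168.2 CPM, and Itgb5 from 114.4 to 84.8 CPM at 1 of 2 promoters. The rise of Gja1 turned to -0.06 when each nucleus was scaled to the same total, and the fall of Sdc4 turned into a rise with binarised counts.

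In signalling, the Egf promoter rose from 36.4 to 72.9 CPM (log2 ratio 0.79) and Vegfa, the endothelial growth factor, fell from 1227.9 to 814.4 CPM (-0.79, and above 0 with binarised counts). Heyl, a Notch target, rose from 38.0 to 77.0 CPM. Stronger promoters of the Hedgehog and Notch list did not share this rise. Hes1 had 515.8 and 402.1 CPM (log2 ratio -0.56), Ptch1 390.2 and 313.2 CPM (-0.52) and Jag1 310.6 and 388.8 CPM (0.12). Sfrp1, a secreted Wnt inhibitor, rose from 20.7 to 38.3 CPM, and a weak promoter of Tcf7l2, a Wnt effector, from 19.8 to 36.8 CPM. The stronger Tcf7l2 promoter had 222.6 and 173.3 CPM (log2 ratio -0.56), so the 2 start regions of this gene lay on opposite sides of the promoter median. List medians were 0.06 for growth factor genes (13 pairs), -0.02 for Wnt (12), -0.04 for Hedgehog and Notch (7), -0.15 for YAP and TEAD (9) and -0.16 for TGF-beta and BMP (13), and these 5, like those of the developmental and matrix lists, lay above that of all promoters under every alternative run.

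Stress and clock genes showed single large changes. Hspd1 and Hspe1, mitochondrial chaperones that share a start region, rose from 626.9 to 1232.3 CPM (log2 ratio 0.77), and Hsp90ab1 had 502.4 and 715.8 CPM (0.31). Klf4 rose from 73.5 to 141.0 CPM (0.73), whereas the phosphatase gene Dusp1 fell from 655.0 to 417.9 CPM and Ier3 from 105.6 to 69.3 CPM. With binarised counts Dusp1 was at 0.53. Fos had 731.8 and 959.6 CPM (0.19) and Myc 240.2 and 235.0 CPM (-0.23). Among acute phase genes 1 of 10 fell, Serpina3n (92.5 to 65.2 CPM), and the metal-binding Mt2 had 130.7 and 222.3 CPM (0.56). Gss and Txnrd1, of glutathione and thioredoxin metabolism, fell with Mafg, from 149.5 to 99.9 and from 217.1 to 149.5 CPM. Of 10 clock promoters 2 fell, against 16.7% of all promoters: Bhlhe40 (1296.6 to 790.5 CPM, a rise with binarised counts) and Usp2 (222.6 to 151.0 CPM). Arntl, which encodes BMAL1, had 109.2 and 117.8 CPM (-0.09).

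The other lists were small or near the promoter median. For iron and haem, 2 of 7 were lower (Urod, 149.5 to 93.8 CPM, and the iron transporter Slc11a2, 88.9 to 65.9 CPM) beside the rise of Hpx. Of 15 cytoskeleton promoters 4 were lower, with Tuba4a (533.3 to 296.6 CPM) and Tln1 (197.1 to 141.7 CPM) first, and Actb had 1430.2 and 1653.3 CPM (0.01). Tuba4a was at 0.27 with binarised counts. Of 7 splicing factor promoters 2 were lower, both of Hnrnpf.

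**Figure D4:**
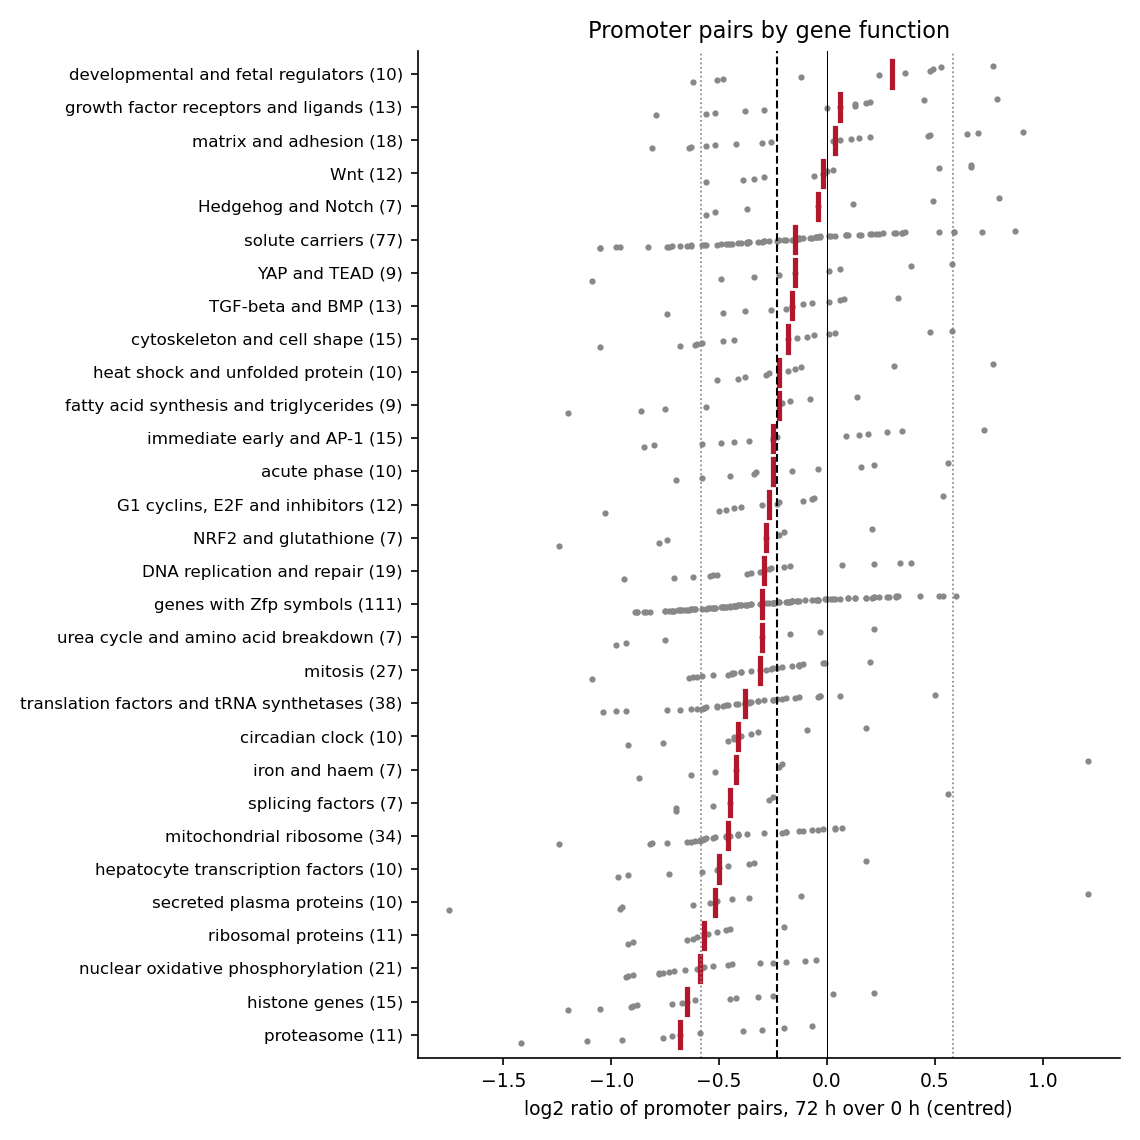
Centred log2 ratio (72 h over 0 h) of each promoter pair (grey points) in function lists with at least 7 pairs (number in brackets), with list medians in red. The dashed line is the median of all promoter pairs (-0.23) and the dotted lines are the 1.5-fold limits; proteasome, histone and oxidative phosphorylation lists lie lowest, and developmental regulators highest (0.30).

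Distal elements were named by the nearest protein-coding start site, which need not be the gene they act on. The 9 rises named here ran from a log2 ratio of 1.12 to 1.47, and the 10 largest falls from -1.64 to -1.24. An element 87249 bp downstream of the start of Atp6v1h, a subunit of the lysosomal proton pump, rose from 12.4 to 41.3 CPM (1.47). An element 37875 bp downstream of the start of Socs3, the feedback inhibitor of cytokine signalling, rose from 13.3 to 41.0 CPM (1.38). The Socs3 promoter itself had 336.7 and 305.3 CPM (-0.34). The other rises were nearest to Chl1, Dpy19l1, Olfr1274-ps, Tmem267, Timd2, Il20ra and Hrh2. All 9 were short, from 450 to 900 bp at 0 h, and weak, and those near Olfr1274-ps and Tmem267 were 83.3% and 78.3% repeat.

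The distal falls were longer, from 1421 to 8213 bp at 0 h. An element near Tnks2 fell from 68.1 to 24.7 CPM (log2 ratio -1.64, -1.99 to -1.35). An element in an intron of Zbtb20, a repressor that shapes the postnatal liver, fell from 122.1 to 55.0 CPM (-1.34). One 10173 bp upstream of Bhmt, which methylates homocysteine, fell from 79.9 to 37.7 CPM (-1.27). A region of 8213 bp within Per2, a core clock gene, fell from 419.9 to 204.7 CPM (-1.24). The remaining falls were nearest to Akap2, Slc12a3, Lyrm9, Trib1, Aurkb and Etv3. In each of these distal pairs the levels at 0 h and 72 h had separate intervals. The pairs were picked for large ratios, so this adds no support.

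**Figure D5:**
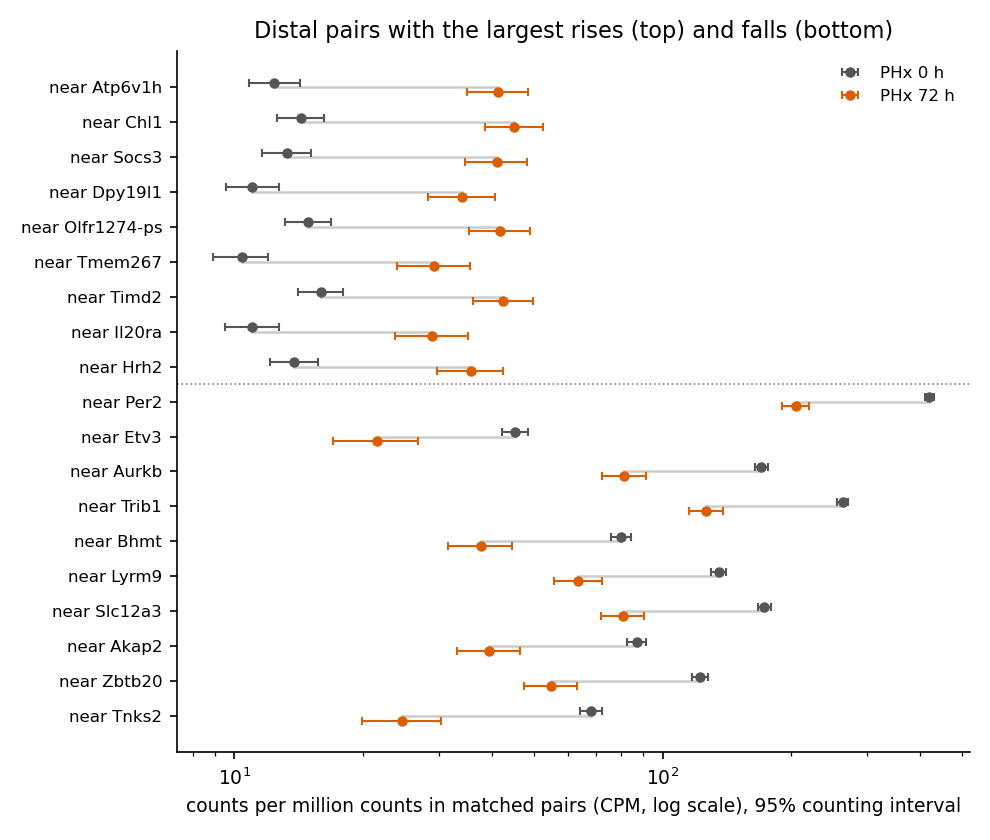
Levels (CPM, log axis) of 9 distal pairs with large rises and the 10 that fell most at 0 h (grey) and 72 h (orange), named by the nearest gene, with 95% counting intervals. The rises start between 10.4 and 15.9 CPM and the falls between 45.3 and 419.9 CPM.

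Distal elements near genes of the hepatocyte lists fell more often than the 8.79% of all distal pairs. Near secreted plasma protein genes 8 of 20 were lower (40.0%). Among them was an element nearest to Gc, the vitamin D-binding protein, 178174 bp from its start (132.9 to 76.3 CPM). Others were nearest to Trf, transferrin (203.5 to 131.6 CPM), and Ttr, transthyretin (185.7 to 121.0 CPM). Near acute phase genes 10 of 28 were lower (35.7%). Examples were nearest to Il1r1 (93.1 to 50.2 CPM), Saa3 (76.9 to 43.5 CPM) and Hp, haptoglobin (196.6 to 128.1 CPM). Several of the lower pairs can be nearest to the same gene, as at Mbl2, Il1r1, Socs2 and Cebpb, so these counts are not counts of genes. Near fatty acid oxidation genes 3 of 14 were lower, those of Bdh1, of ketone body metabolism (114.9 to 58.1 CPM), Fgf21, a fasting hormone (64.6 to 34.5 CPM), and Ehhadh (81.2 to 45.2 CPM). An element 31 kb upstream of Cyp3a11 fell from 92.6 to 46.3 CPM, while the pair of 32073 bp over its start site rose. Near Idi1, of isoprenoid synthesis, an element rose from 48.7 to 120.9 CPM.

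Clock and stress loci held both directions. Near clock genes 6 of 27 distal pairs were lower (22.2%, against 8.79% of all distal pairs) and 2 were higher (against 3.09%). Besides Per2, the lower ones were nearest to Nfil3 (99.1 to 53.5 CPM and 67.5 to 40.6 CPM), Cry2 (216.1 to 118.7 CPM), Cry1 (83.9 to 49.0 CPM) and Hlf (137.8 to 94.9 CPM). Elements near Bhlhe40 (17.7 to 36.5 CPM) and Clock (17.6 to 32.0 CPM) rose. The sources used here do not state the hour of day of sampling. Near Nfe2l2, which encodes NRF2, 2 elements upstream fell, from 53.9 to 28.9 CPM and from 89.8 to 50.2 CPM. Near hepatocyte transcription factors 11 of 70 were lower (15.7%) and 1 was higher, an element upstream of Foxa2 (13.4 to 24.3 CPM). The lower pairs near Cebpb are counted both here and among the acute phase genes.

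Near developmental regulators 4 of 82 distal pairs were lower (4.88%, against 8.79% of all distal pairs). Another 3 were higher, near the 3.09% of all distal pairs, and the median was 0.01. The risen elements lay near Sox17, an endoderm regulator (log2 ratio 0.85), Lin28b, a fetal blocker of let-7 maturation (26.6 to 49.5 CPM), and Sox9, a biliary regulator (21.7 to 38.3 CPM). Elements nearest to Igf2bp3 (70.7 to 43.5 CPM) and Gli2 (85.5 to 57.0 CPM) fell. An element near Fgfr2 rose to 30.3 CPM (log2 ratio 0.98), and one near Vegfa fell from 121.0 to 72.4 CPM. Near proteasome and oxidative phosphorylation genes, distal pairs were lower in 1 of 10 and 2 of 26.

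Other features of the moving pairs were examined after values had been seen. Of 47 pairs over tRNA genes, 24 were lower and 5 higher, with a median log2 ratio of -0.59. Over all pairs, 11.3% were lower and 3.42% higher, with a median of -0.11. One, over 4 tRNA genes near Aurkb, is the distal fall named above (170.1 to 81.4 CPM), and tRNA genes are repeated in near copies. Of 312 genes with at least 5 distal pairs, Rreb1 had the lowest median (-0.70, 4 of 5 pairs lower), and Ptpn1, an insulin receptor phosphatase gene, had 7 of 7 below 0 (median -0.56). Nckap5 had the highest (0.62, 3 of 5 higher), followed by Nol4l (0.54, 2 of 5 higher), whose intron also holds the risen start site of 4930404H24Rik. These genes were picked from the ends of the ranking of all 312. Over all distal pairs, 8.79% were lower and 3.09% higher, and the median was -0.07, so most lay below 0. Pairs around 1 gene are neighbours and not independent.

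In the central 300 bp, the GC box GGGCGG was in 47.7% of risen, 34.4% of fallen and 43.9% of all promoter windows. The ETS motif CCGGAAG was in 6.03%, 10.5% and 8.25%, and the E-box CACGTG in 3.02%, 7.68% and 6.46%. In distal windows the HNF4 motif CAAAGTCCA was in 2 of 324 risen and 23 of 920 fallen windows and in 1.43% of all, and the nuclear receptor motif AGGTCA in 19.4%, 26.1% and 23.8%. The AP-1 motif TGANTCA was in 42 of 324 risen and 94 of 920 fallen windows and in 9.87% of all. The TEAD motif CATTCC was in 21.0% of risen, 16.7% of fallen and 16.7% of all, and the CTCF short core AGGGGGC in 8.33%, 4.13% and 6.76%. Both strands were searched, motifs may overlap, and these shares describe letters and no binding.

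The same 0 h peaks could be set against other time points where a peak of near-equal length had been called there. These comparisons share the 0 h library and are each centred on their own median. At 48 h, 13 of the 15 largest promoter falls had a value, from -0.87 to -0.30: Fetub was at -0.64, Cpt1a at -0.85, Selenop at -0.33 and Mafg at -0.86. Of the 15 largest rises 6 had one, from 0.22 to 0.91, with Gm43314 at 0.84 and Epdr1 at 0.91. For the distal rises, 6 of 9 had values of 0.63 to 0.87 at 48 h and 6 had 0.12 to 0.93 at 96 h, and the element near Atp6v1h was at 0.87 and 0.93. For distal falls, 8 of 10 had values of -1.08 to -0.49 at 48 h, and Per2 was at -0.58. None of the largest promoter or distal falls had a matched peak over the count minimum at 96 h, where 297 pairs in all had one.

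Nuclei in clusters low in hepatocyte markers were also left out. These clusters held 289 of 3977 nuclei at 0 h and 320 of 4256 at 72 h, with 1.26% and 3.16% of the counts in pairs. Without them, 986 of the 1006 promoter calls and 1184 of the 1244 distal calls were made again, and no called pair moved by more than 0.14. Hpx was then at 1.23, Fetub at -1.75, Itgb4 at 0.91, Zeb2 at 0.82, Klf4 at 0.78 and Heyl at 0.87. Without shared barcodes these 6 were at 1.17, -1.74, 0.90, 0.70, 0.65 and 0.76.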

How the data were processed

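Per the labels, the authors processed the reads with Cell Ranger ATAC (mm10), and the file headers name version 1.1.0; the deposited counts are whole transposase cut sites per peak and barcode, with peaks called in each library on its own. Barcodes with at least 1000 counts were kept and no doublet caller was run. Pairs were autosomal, overlapped one to one and differed in length by at most 1.1 times. Counts were summed, scaled to equal totals, given a pseudocount of 5 and centred, and calls needed a mean scaled count of 100 and a fold of 1.5. Intervals (95%) are exact Poisson for levels and Clopper-Pearson for ratios, on counts divided by 2, as fragments have 2 ends. Start sites came from GENCODE vM21, and sequence, repeats and tRNA genes from RefSeq GRCm38. Clusters used Scanpy 1.11.5 and leidenalg 0.10.2.

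With 1 library per time, no test was run on these counts. The steps recovered planted changes well past the fold limit in simulated counts that held counting error only. Changes near the limit, and differences between libraries, were not simulated. Members and gene lists were chosen with earlier results of these data known. Named are the 15 largest promoter and 10 largest distal changes each way (1 distal rise and some list members are not reported here), and, in the lists, called pairs, the extremes and strong members. The deposited peak lists give positions and no score. The libraries of 48 and 96 h entered only as side values.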

Additional observations from a re-analysis of the deposited data

How the results depend on the processing

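No paired analysis was possible because each time point has 1 library. Counts of calls are given as promoter higher and lower, then distal higher and lower, against 199, 807, 324 and 920 as reported. Lengths within 5% gave 82, 386, 126 and 445 on fewer pairs, and a 2-fold limit 18, 85, 21 and 80. Binarised counts gave 305, 138, 110 and 268. No centring gave 447, 295, 1108 and 317, and centring promoter and distal pairs apart gave 430 and 323 for promoters. Distal rises numbered 683, 91 and 803 with a minimum of 50, of 200 or none, and 494 with each nucleus scaled to the same total. Among alternatives added after the data were seen, centring within bins of level gave 303, 359 and 500 (promoter higher, promoter lower, distal higher), and centring on the pairs over the minimum gave 316, 473, 674 and 514. The other counts stayed within 1.5 times of those reported. Where the cause is not in the alternative's construction it was not tested.

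Of 387 pairs named by the rule, 20 past the fold limit changed sign with binarised counts, in which a nucleus counts at most once per peak: promoters of Tuba4a (0.27), Apoa2 (0.44), Itih2 (0.02), Zfp385b (0.06), Sdc4 (1.54), Gne (0.08), Slc4a2 (0.15), Bhlhe40 (1.0), Slc6a13 (0.39), Zfp787 (0.01), Sc5d (1.07), Gm33543 (0.07), Mafg (0.18), Fasn (1.38), Selenop (0.63), Tuba1c (0.29), Dusp1 (0.53), Vegfa (0.98) and Cdo1 (0.71), and a distal pair of Inhbb (0.17). Of the rest, 115 stayed within their counting interval, 199 moved past it and 53 were not in the set. No centring moved 186 of the 387 past it, centring within bins of level 167, centring promoter and distal pairs apart 105, and scaling each nucleus to the same total 83. The last also turned Gja1 to -0.06. Depth limits weak pairs most: the median count behind a pair was 583 for promoters and 211 for distal pairs at 72 h.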

Other observations

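2 broad families were not described above. Promoters of genes with Zfp symbols, most of them zinc finger proteins, had a median log2 ratio of -0.30 over 111 pairs, with 24 lower (21.6%, against 16.7% of all promoter pairs) and 1 higher (against 4.12%), Zfp827 (49.5 to 86.8 CPM). The largest falls were at Zfp385b (332.9 to 205.8 CPM), Zfp787 (320.6 to 199.5 CPM) and Zfp346 (66.2 to 41.1 CPM).

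Of 77 promoter pairs of solute carriers 12 were lower (15.6%, near the 16.7% of all promoters) and 4 higher, with a median of -0.15 against -0.23. Falls were largest at Slc6a13, a GABA and taurine transporter (623.1 to 345.8 CPM), and Slc25a32, the mitochondrial folate carrier (133.0 to 73.8 CPM). The rises were at Slc38a1 (log2 ratio 0.87, 38.6 CPM at 72 h), Slc26a4 (36.8 to 70.6 CPM), the weaker of 2 Slc12a5 start sites (17.6 to 30.8 CPM) and Slc1a3 (16.1 to 28.2 CPM). The stronger Slc12a5 site had 54.1 and 63.4 CPM (log2 ratio 0.02). Relative to all promoters, the solute carrier median lay between 0.00 and 0.10 over the alternatives run, and that of the Zfp genes between -0.17 and -0.01.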
